A study of Mus musculus with 28 samples.

Results

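The Fc receptors for IgG and their shared signalling chain were followed in microglia, the resident macrophages of the retina, before and after endotoxin-induced uveitis (EIU). Their members are the genes Fcgr1, Fcgr2b, Fcgr3, Fcgr4 and Fcer1g, taken by symbol from a table of 40021 genes. All 5 were listed and all 5 were among the 13164 genes that reached 1 RPKM, a read number scaled by transcript length and library size, in 5 or more retinas. At 18 h after LPS, 4 of the 5 passed the test as higher than in naïve microglia (2.84% of all genes tested did), with Fcgr4 showing the largest change. That result was lost for Fcgr1 when any one of several single retinas was left out, and for Fcgr1 and Fcgr2b under quantile normalisation. Fcgr3 did not pass the test at any time. At 2 weeks none of the 5 differed from naïve by the test.

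The 28 samples were live microglia, sorted for bright tdTomato, from single retinas of male heterozygote Cx3cr1CreER:R26-tdTomato (C57BL/6) mice, in which the promoter of the fractalkine receptor gene drives a tamoxifen-dependent Cre recombinase that switches on the red reporter tdTomato. All groups, naïve included, carried these alleles and had received topical tamoxifen when young, so that they were adults when sampled; the labels give no age. The 10 naïve retinas had no injection, and the others were taken 4 h (6 retinas), 18 h (5) or 2 weeks (7) after an intravitreal injection of LPS, a bacterial cell wall component that activates innate immune cells. No group was injected without LPS, so effects of LPS and of the injection itself cannot be told apart. The retinas came from 2 experiments, the first with 6, 3, 4 and 4 retinas and the second with 4, 3, 1 and 3, and from left and right eyes. The labels do not tie retinas to mice, so some left and right retinas may share a mouse. The p-values measure the spread between retinas and treat each as independent, while the number of mice may be smaller.

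Fc receptors bind the constant part of antibodies and so let phagocytes take up and respond to antibody-coated targets. The activating receptors encoded by Fcgr1, Fcgr3 and Fcgr4 signal through the FcRγ chain encoded by Fcer1g, which carries an activation motif and is also needed to bring them to the cell surface. Fcgr2b encodes the inhibitory receptor, whose own tail carries an inhibitory motif that recruits phosphatases, and the balance between both kinds sets how strongly a myeloid cell answers to immune complexes. In brain and retina, microglia are the main resident cells with these receptors.

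Each retina had between 7510000 and 19700000 alignments, and between 6552 and 11825 genes detected, that is at 1 RPKM or more. The 4 retinas with the fewest such genes (6552 to 7088; naïve replicates 3 and 4, 18 h replicate 4 and 2 weeks replicate 1, all from experiment 1) stood apart from the other 24 (8137 to 11825), and results that rest on them are given with and without them. All 10 microglia markers examined (among them P2ry12, Tmem119 and Cx3cr1) were detected in every group, but 6 of the 10 were called lower than naïve at 4 h and 6 at 18 h, and their summed RPKM was lower at 4 h (2160 to 7225) and 18 h (4000 to 6557) than in naïve (8324 to 14190) and 2 week (8789 to 14310) retinas. The values are RNA of sorted pools, so fewer cells with a transcript and less of it per cell cannot be told apart.

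Fcgr2b (chr1:170958617-170976547, minus strand), Fcgr4 (chr1:171018920-171029761, plus strand), Fcgr3 (chr1:171051174-171064935, minus strand) and Fcer1g (chr1:171229572-171234365, minus strand) lie within 276 kb of mouse chromosome 1, and Fcgr1 lies apart (chr3:96282909-96293969, minus strand; all GRCm38, which is mm10). The promoters of the 3 activating receptors are shown, since these genes bind the same kind of ligand and share a signalling chain but differed in their course after LPS. Each runs from 250 bases before to 50 bases after the RefSeq start (GRCm38.p6), 5′ to 3′ on the strand of the gene, and capitals mark matches to the letters searched on both strands. These were the STAT-type GAS element TTCNNNGAA, the core GAAANNGAA of the interferon-stimulated response element (ISRE), and the PU.1 core GAGGAA, which reads TTCCTC on the other strand.
Fcgr1 (chr3:96293920-96294219, minus strand): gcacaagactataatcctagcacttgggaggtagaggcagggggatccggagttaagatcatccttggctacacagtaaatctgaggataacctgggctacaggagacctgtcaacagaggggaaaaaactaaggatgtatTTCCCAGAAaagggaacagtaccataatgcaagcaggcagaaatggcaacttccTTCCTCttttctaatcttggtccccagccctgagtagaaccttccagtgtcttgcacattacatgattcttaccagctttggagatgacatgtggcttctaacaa
Fcgr4 (chr1:171018676-171018975, plus strand): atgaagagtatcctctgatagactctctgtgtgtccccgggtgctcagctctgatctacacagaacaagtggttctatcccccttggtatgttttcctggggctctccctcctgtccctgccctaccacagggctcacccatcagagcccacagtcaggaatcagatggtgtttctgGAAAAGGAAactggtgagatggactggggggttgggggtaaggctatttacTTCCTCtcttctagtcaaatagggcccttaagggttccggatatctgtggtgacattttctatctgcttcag
Fcgr3 (chr1:171059354-171059653, minus strand): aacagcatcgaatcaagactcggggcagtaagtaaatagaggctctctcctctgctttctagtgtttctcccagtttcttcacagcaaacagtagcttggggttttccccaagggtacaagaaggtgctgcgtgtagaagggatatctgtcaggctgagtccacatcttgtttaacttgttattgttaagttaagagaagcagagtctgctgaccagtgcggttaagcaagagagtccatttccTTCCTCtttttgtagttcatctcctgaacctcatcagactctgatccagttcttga
The Fcgr1 sequence holds a GAS match, TTCCCAGAA, at position -109 from the start, and the Fcgr4 sequence holds an ISRE core match, GAAAAGGAA, at -73. All 3 hold a PU.1 core match, at -55 in Fcgr1, -22 in Fcgr4 and -6 in Fcgr3. The promoters of Fcgr2b and Fcer1g held none of the 3 motifs. Of 27025 promoters of this length, 8.47% held the GAS element, 8.57% the ISRE core and 28.3% the PU.1 core, and a match describes these letters only. The Fcgr3 start of RefSeq lies inside the gene span given by GENCODE, which extends further upstream.

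In naïve microglia the order of the median levels, per length, was Fcer1g, Fcgr3, Fcgr2b, Fcgr1 and Fcgr4. Fcer1g and Fcgr3 stood at 2130 and 1443 RPKM, over 10 times above the other members, whose medians were 99.7 for Fcgr2b, 59.4 for Fcgr1 and 55.4 for Fcgr4. The naïve ranges of Fcer1g (771 to 2457) and Fcgr3 (224 to 2405) overlapped, as did those of the 3 low members. In the microglia of a naïve retina, Fcgr3 made up a median of 88.2% of the summed RPKM of the 4 receptors.

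**Figure D1:**
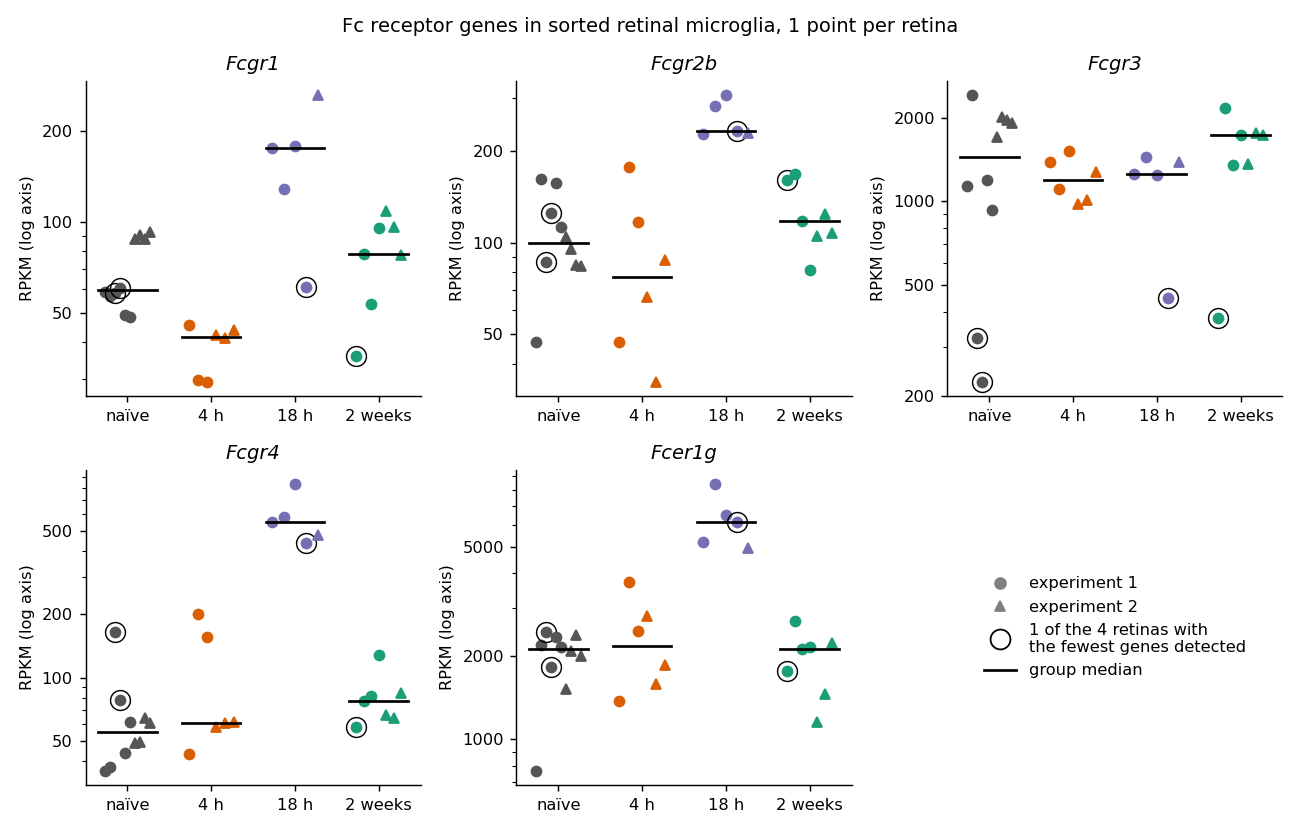
RPKM of the 5 members in each of the 28 retinas on log axes, by group, with the group median as a bar, the experiment as marker shape and rings on the 4 retinas with the fewest genes detected. Fcgr2b, Fcgr4 and Fcer1g sit higher in all 5 retinas at 18 h than in any naïve retina, Fcgr1 is lower at 4 h in all 6, and the ringed retinas hold the 4 lowest Fcgr3 values.

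Fcgr1, which encodes the high-affinity IgG receptor, was the member whose values lay below naïve at 4 h and mostly above it at 18 h. Naïve retinas ranged from 48.5 to 92.5 RPKM (median 59.4) and 4 h retinas from 29.4 to 45.6 (median 41.6). Every 4 h retina lay below every naïve retina, a pattern shown by 1.42% of the genes tested. The change at 4 h was nevertheless not called: log2 fold change -0.80 (SE 0.29, 95% interval -1.39 to -0.20, adjusted p = 0.092 by limma with Benjamini-Hochberg adjustment over all genes tested), where a call needs both an adjusted p no higher than 0.05 and a 2-fold change. Without the 4 retinas with few genes detected, the adjusted p was 0.013 and the log2 fold change -0.84, still under the fold required.

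At 18 h, Fcgr1 measured 175.6, 128.8, 179.4, 60.7 and 263.4 RPKM, with a mean of 162 ± 74.4 (SD, n = 5) against 69.0 ± 18.2 (SD, n = 10) in naïve. Replicate 4 was the low one and fell into the naïve range, whereas the other 4 lay above it. The log2 fold change was 1.11 (SE 0.31, interval 0.48 to 1.74, adjusted p = 0.030, limma), and 1.38 (adjusted p = 0.0012) without the 4 retinas with few genes detected. This call depended on single retinas: it was lost without any one of 18 h replicates 1, 2, 3 and 5 or naïve replicate 6 (log2 fold change 0.90 to 1.15, adjusted p 0.051 to 0.14), and under quantile normalisation (0.81, adjusted p = 0.15).

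Naïve values of Fcgr1 did not overlap between the experiments. Naïve retinas of experiment 1 had 48.5 to 60.4 RPKM and those of experiment 2 had 87.5 to 92.5. This difference was not tested. The share of all genes whose naïve values separate by experiment was not counted, so the split is not read as particular to Fcgr1. Within each experiment the 4 h retinas lay below and the 18 h retinas above all naïve retinas of that experiment. The share of all genes that do so within an experiment was not counted. In experiment 1 the margin at 18 h was narrow, with replicate 4 at 60.7 RPKM against 60.4 in the highest naïve retina. Log2 fold changes at 4 h were -0.67 in experiment 1 and -1.06 in experiment 2, and at 18 h 1.17 (4 retinas) and 1.54 (1 retina). From 4 h to 18 h the rise was 1.90 (SE 0.34, adjusted p = 4.1e-04, limma), with every 18 h retina above every 4 h retina (4.84% of all genes).

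Fcgr4, an activating receptor of intermediate affinity that binds some IgG subclasses, rose most. At 18 h its 5 retinas measured 546.9, 581.3, 832.9, 436.1 and 474.4 RPKM. Naïve retinas ranged from 36.2 to 164.7 with a median of 55.4, so that the lowest 18 h retina was still far above the highest naïve one. The log2 fold change was 3.24 (SE 0.35, interval 2.53 to 3.95), a 9.4-fold rise, with an adjusted p of 1.4e-07 by limma, the 17th smallest p among 13164 genes. Values in experiment 1 (3.26, 4 retinas at 18 h) and experiment 2 (3.07, 1 retina) were close, and without the 4 retinas with few genes detected it was 3.57.

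At 4 h, Fcgr4 ranged from 43.5 to 201 RPKM with a median of 61.2, and the groups overlapped (log2 fold change 0.48, SE 0.33, adjusted p = 0.44, limma). Replicates 2 and 3 were the high ones, at 201 and 156, while the other 4 lay between 43.5 and 61.5. The same 2 retinas had the lowest Fcgr1 (29.9 and 29.4), the highest Fcgr2b (178 and 117) and the fewest genes detected (8254 and 9331) of the 4 h group. At 2 weeks the range was 58.2 to 129 (median 77.6), a log2 fold change of 0.41 (SE 0.31, adjusted p = 1), and the change from 18 h was -2.83 (SE 0.37, adjusted p = 9.6e-06, limma). In experiment 2 all 3 retinas at 2 weeks lay above the 4 naïve ones (log2 fold change 0.35, share of all genes not counted), and in experiment 1 they overlapped (0.46). Without the 4 retinas with few genes detected the values were larger, 0.72 at 4 h (interval 0.13 to 1.32, unadjusted p = 0.020, adjusted p = 0.099) and 0.72 at 2 weeks (0.12 to 1.31, unadjusted p = 0.020, adjusted p = 1, limma), and neither was called.

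Fcgr3, which encodes a low-affinity activating receptor, was the most abundant of the 4 receptors and did not pass the test in any comparison. It ranged from 224 to 2405 RPKM in naïve (median 1443), from 977 to 1520 at 4 h (median 1192) and from 381 to 2171 at 2 weeks (median 1731). At 18 h it measured 1252.7, 1437.6, 1245.6, 450.6 and 1380.5. All groups overlapped, with naïve the widest. Log2 fold changes were 0.11 at 4 h (interval -0.76 to 0.97), -0.05 at 18 h (-0.97 to 0.86) and 0.28 after 2 weeks (-0.55 to 1.10), with adjusted p = 0.92, 0.97 and 1 by limma. The interval at 18 h holds changes of nearly 2-fold either way.

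Its spread went with the number of genes detected. In the 4 retinas with the fewest genes, Fcgr3 was 224 to 451 RPKM, and in the other 24 it was 931 to 2405, with no overlap. The 4 were picked for having few genes detected, which itself favours low values there. The share of all genes split this way was not counted, so the split is not read as particular to Fcgr3. Within its group, 18 h replicate 4 also had the lowest Fcgr1 (60.7, others 128.8 to 263.4), as did 2 weeks replicate 1 (35.9). Naïve replicates 3 and 4 had the highest Fcgr4 of their group (164.7 and 78.4). In 18 h replicate 4 and 2 weeks replicate 1, Fcgr4 was the lowest of the group (436 and 58.2). With the groups pooled, Fcgr2b (86.2 to 232), Fcgr4 (58.2 to 436) and Fcer1g (1769 to 6133) in those 4 retinas lay within the range of the other 24, and so did Fcgr1 (35.9 to 60.7). Without them the Fcgr3 log2 fold changes were -0.40 at 4 h (interval -0.84 to 0.04, adjusted p = 0.23), -0.25 at 18 h (-0.75 to 0.24, adjusted p = 0.60) and 0.07 after 2 weeks (adjusted p = 1, limma). The part of library quality in these values was not tested further.

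**Figure D2:**
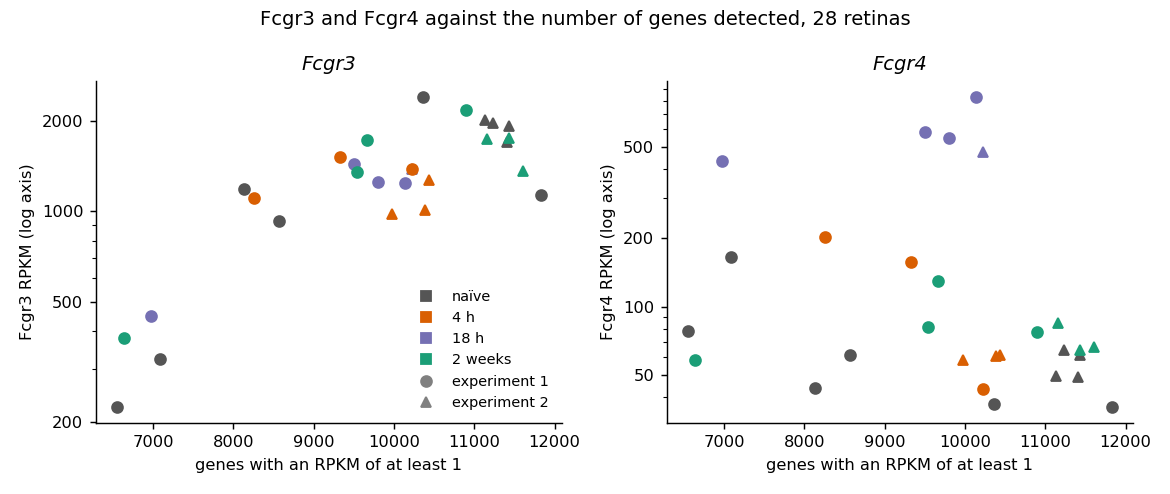
Fcgr3 (left) and Fcgr4 (right) RPKM on log axes against the number of genes detected at 1 RPKM or more, 1 point per retina, coloured by group and shaped by experiment. The 4 retinas with at most 7088 genes hold Fcgr3 at 224 to 451 and lie below all others, whereas for Fcgr4 the 5 retinas at 18 h, from 436 to 833, lie above all others at any number of genes.

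The experiments gave Fcgr3 different signs at 4 h. The log2 fold change was 0.77 in experiment 1, which holds the 4 retinas with few genes. In experiment 2 it was -0.81, and the 3 retinas at 4 h lay below the 4 naïve ones (share of all genes not counted). The difference itself was -1.58 (SE 0.81, p = 0.060, adjusted p = 1 by limma), and 0.0988% of all genes passed that test. None of the 5 members did, at 4 h or at 2 weeks.

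Fcgr2b, the inhibitory receptor, was higher at 18 h. The 5 retinas measured 227.0, 281.9, 305.5, 232.4 and 230.3 RPKM, against a naïve range of 47.2 to 161 with a median of 99.7. They lay close together and above every naïve retina, and the log2 fold change was 1.33 (SE 0.32, interval 0.68 to 1.98, adjusted p = 0.0097, limma). It was 1.28 within experiment 1 and 1.32 within experiment 2, with the call lost in each alone (adjusted p = 0.17 and 0.15) and under quantile normalisation (1.00, adjusted p = 0.053).

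Around that peak Fcgr2b was not called. At 4 h it ranged from 34.8 to 178 with a median of 77.1, across the naïve range (log2 fold change -0.38, SE 0.30, adjusted p = 0.51), and at 2 weeks from 81.0 to 168 with a median of 118 (0.26, SE 0.29, adjusted p = 1, both by limma). Of 5768 distinct stretches of 75 bases in the Fcgr2b transcripts, 1.63% also occur in Fcgr3, as do 5.42% of the 1733 in Fcgr3 with Fcgr2b. Of those in Fcgr2b, 1.42% occur in the overlapping gene Gm38204 and 5.43% in some other gene in all, with both strands searched. Reads of those stretches were divided by estimation, and the library kit does not mark strand. Fcgr1, Fcgr4 and Fcer1g share no such stretch with another gene.

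Fcer1g, the FcRγ chain, was the most abundant member at every time by the median. At 18 h it measured 5184.9, 8427.5, 6493.4, 6132.9 and 4947.0 RPKM, against 771 to 2457 in naïve (median 2130), and each of the 5 lay above all naïve retinas. The rise was 1.69 on the log2 scale (SE 0.26, interval 1.16 to 2.22), or 3.2-fold, with an adjusted p of 6.5e-05 by limma. Within experiment 1 it was 1.81, and within experiment 2, with its 1 retina at 18 h, it was 1.32 (adjusted p = 0.19).

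The 4 h retinas held 1383 to 3707 RPKM of Fcer1g (median 2173; log2 fold change 0.20, SE 0.24, adjusted p = 0.71) and the 2 week retinas 1153 to 2696 (median 2132; -0.01, SE 0.23, adjusted p = 1, both by limma). Both ranges ran across that of naïve. Between 18 h and 2 weeks Fcer1g fell by 1.70 on the log2 scale (SE 0.28, adjusted p = 1.9e-04, limma).

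**Figure D3:**
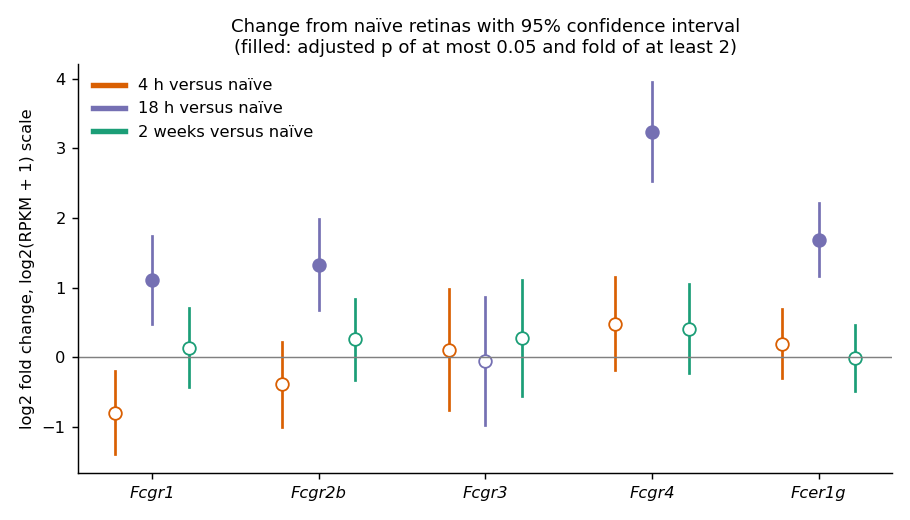
Log2 fold change of each member against naïve on the log2(RPKM + 1) scale at each time, with 95% confidence intervals from limma; filled points were called. At 18 h the interval lies above 0 for Fcgr1, Fcgr2b, Fcgr4 and Fcer1g and spans -0.97 to 0.86 for Fcgr3.

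In all, 0 of 5 members were called at 4 h, where 3.68% of all genes were called higher and 4.39% lower. At an unadjusted p under 0.05 the count was 1, for Fcgr1, or 2 with Fcgr4 when the 4 retinas with few genes detected were left out, and a fit on untransformed RPKM called 0 as well. At 18 h, 4 of 5 were called higher, against 2.84% of all genes, and 3 (Fcgr2b, Fcgr4 and Fcer1g) lay above naïve in every retina, against 2.05%. At 2 weeks 0 of 5 were called, none at an unadjusted p under 0.05 with all retinas and 1, Fcgr4, without the 4 with few genes detected, and 0.00760% of all genes were called higher and 0% lower. These comparisons share the naïve retinas.

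The same 4 members were higher at 18 h than at 4 h (2.92% of all genes were), by 1.90 for Fcgr1, 1.72 for Fcgr2b (adjusted p = 0.0021), 2.76 for Fcgr4 (adjusted p = 1.0e-05) and 1.49 for Fcer1g (adjusted p = 8.9e-04, all by limma). From 18 h to 2 weeks, 2 of 5 were called lower (1.55% of all genes), namely Fcgr4 and Fcer1g. Fcgr1 (-0.97, SE 0.33, adjusted p = 0.12) and Fcgr2b (-1.07, SE 0.34, adjusted p = 0.090) were not, although every 2 week retina lay below every 18 h retina in Fcgr2b (2.07% of all genes). Without the 4 retinas with few genes detected, Fcgr1 was called too (-1.11, adjusted p = 0.016, limma).

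Markers of other cells moved at 18 h too. The summed RPKM of 9 neutrophil markers was at most 0.20 in naïve, and at 18 h it was 1.08, 12.7, 17.1, 0 and 0.88 in replicates 1 to 5, with S100a8 and S100a9 the highest and Ly6g, Retnlg, Ngp, Ltf and Cxcr2 below 1 in every retina. Of 7 monocyte markers, Ly6c2, Ccr2 and Chil3 reached 1 at 18 h alone, and the sum was 12.6, 7.15, 8.33, 0.032 and 33.0 (naïve 0.14 to 29.1). Of 7 T and NK cell markers the sum was at most 0.029 in naïve and 7.55, 39.8, 13.6, 115 and 17.3 at 18 h, led by Nkg7, with Cd3e and Cd3g below 1.

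Replicate 4, whose neutrophil and monocyte sums were at or near 0 and whose T and NK cell sum was the highest, had 436 RPKM of Fcgr4, 232 of Fcgr2b and 6133 of Fcer1g. Its Fcgr1 (60.7, within the naïve range) and Fcgr3 (451) were the lowest of the 18 h group. Replicate 5, with the highest monocyte sum (33.0), had the highest Fcgr1 (263) and the lowest Fcer1g (4947) of that group. No retina at 18 h was at the naïve level in all 3 of these marker lists. The 5 perivascular macrophage markers summed to 4.93 to 38.1 at 18 h and 0.13 to 509 in naïve, the rod photoreceptor markers to 138 to 1339 (naïve 205 to 3840), and the Müller glia markers to 32.4 to 76.9 (naïve 48.0 to 177). The part of such cells in the receptor values was not tested.

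The ratios of activating to inhibitory receptor at 18 h overlapped with naïve over all retinas. Within each retina, the Fcgr4 to Fcgr2b ratio of RPKM had a median of 0.59 in naïve (0.23 to 1.91) and was 2.41, 2.06, 2.73, 1.88 and 2.06 at 18 h. Fcgr4 thus exceeded Fcgr2b in 5 of 5 retinas at 18 h and in 1 of 10 naïve retinas, replicate 3, whose ratio of 1.91 reached into the 18 h range. The Fcgr3 to Fcgr2b ratio had a median of 15.6 in naïve (1.80 to 24.1) and was 5.52, 5.10, 4.08, 1.94 and 5.99 at 18 h, none of them below the lowest naïve ratio.

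Leaving out the 4 retinas with few genes detected, a choice made after seeing the data, these ratios did not overlap: Fcgr4 to Fcgr2b was 0.23 to 0.77 in naïve and 2.06 to 2.73 at 18 h, and Fcgr3 to Fcgr2b was 7.59 to 24.1 and 4.08 to 5.99. The Fcgr1 to Fcgr2b ratio overlapped in either case, with medians of 0.76 in naïve, 0.57 at 4 h, 0.59 at 18 h and, after 2 weeks, 0.73. No test was run on ratios. At 2 weeks the medians were 0.63 for Fcgr4 to Fcgr2b and 12.96 for Fcgr3 to Fcgr2b, and both ranges overlapped with naïve.

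**Figure D4:**
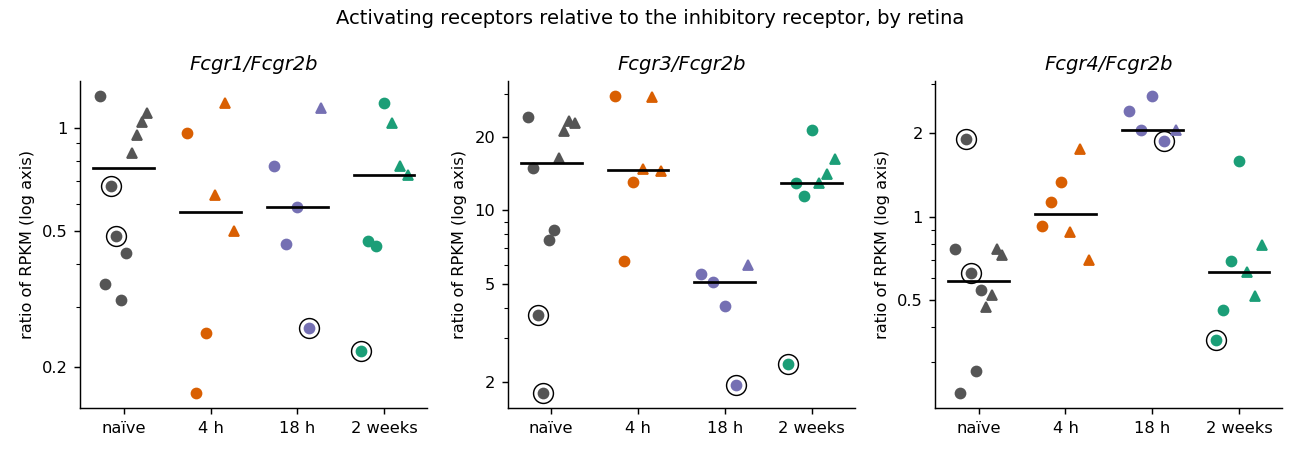
Ratio of Fcgr1, Fcgr3 and Fcgr4 to Fcgr2b in RPKM in each retina, on log axes, by group, with the group median as a bar, the experiment as marker shape and rings on the 4 retinas with the fewest genes detected. At 18 h Fcgr4 to Fcgr2b lies between 1.88 and 2.73, Fcgr3 to Fcgr2b between 1.94 and 5.99, and Fcgr1 to Fcgr2b within or below the naïve range.

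As a share of the summed RPKM of the 4 receptors, Fcgr3 had a median of 88.2% in naïve (46.0 to 90.4%) and 56.9% at 18 h (38.2 to 59.2%), with 86.1% at 4 h and 85.0% after 2 weeks. Fcgr4 had 2.88% in naïve (1.41 to 26.0%) and 24.8% at 18 h (20.2 to 37.0%), with 5.20% at 4 h and 4.24% after 2 weeks. Both shares overlapped between naïve and 18 h, and the level of Fcgr3 itself did not pass the test. Fcgr2b had 5.72% in naïve and 11.6% at 18 h, and Fcgr1 had 4.25% and 7.00%. The sum itself had a median of 1689 RPKM in naïve and 2349 at 18 h. Fcer1g over the sum of the 3 activating receptors that use it had a median of 1.05 in naïve (0.63 to 5.06), 1.44 at 4 h, 2.88 at 18 h (2.34 to 6.47) and 1.16 at 2 weeks, with overlap between naïve and 18 h.

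No other Fc receptor tested was called higher than in naïve. Of 14 listed, 13 were in the table and 5 were tested: 1 of the 5 was called, lower at 18 h (1.85% of all genes were), and none at the other times, with medians at 4 h, at 18 h and after 2 weeks of -0.24, -0.47 and 0.17 against -0.11, -0.08 and 0.07 for all genes tested. The gene called was Fcrls, an Fc receptor-like gene known as a microglial marker. It was lower at 18 h, with 45.7, 9.31, 12.3, 19.3 and 28.0 RPKM against 40.4 to 137 in naïve (median 68.0); only replicate 1 reached the naïve range (log2 fold change -1.68, SE 0.38, adjusted p = 0.0067, limma). It was higher at 2 weeks than at 18 h (1.75, adjusted p = 0.013).

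The neonatal Fc receptor gene Fcgrt, whose product carries IgG out of endosomes, had medians of 15.9, 14.0, 23.5 and 30.8 RPKM in the 4 groups in order of time (log2 fold change 0.56 at 18 h, adjusted p = 0.69). Trim21, a cytosolic antibody receptor, had 2.67, 3.60, 4.86 and 5.90 (1.04 at 18 h, adjusted p = 0.30), and Fcrl1 had at most 14.6 in naïve and 2.09 at 18 h (-1.68 at 18 h, adjusted p = 0.075, all by limma). Fcrlb had a median below 1 in each group (-0.47 at 18 h, adjusted p = 0.59). Fcrl5, Fcrl6, Fcrla, Ms4a2, Fcer2a, Fcmr, Fcamr and Pigr were below 1 in every retina, among them the beta chain of the IgE receptor (Ms4a2), which was listed at 0 throughout. Fcer1a was not analysed here.

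FcRγ also pairs with receptors that do not bind antibody. Of 6 listed, 5 were in the table and 3, all C-type lectins, were tested. Clec4e, which encodes the glycolipid receptor Mincle, was called higher at 18 h, where 2.84% of all genes were (log2 fold change 2.10 on the log2(RPKM + 1) scale, SE 0.54, adjusted p = 0.016, limma). It measured 3.76, 4.02, 3.00, 3.71 and 2.96 RPKM against at most 0.30 in naïve. All 5 thus lay above every naïve retina, as for 2.05% of all genes. At 2 weeks Clec4e was not called, and replicate 4 held 25.3 RPKM, more than any 18 h retina. Clec4d (1.87 at 4 h, adjusted p = 0.051; 1.44 at 18 h, adjusted p = 0.23) and Clec4n, which encodes a dectin (0.22 and 0.26, adjusted p = 0.92 at both), were not called. Gp6 and Pira2 were below 1 in every retina, and Oscar was not analysed here.

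The heavy chains of IgG, the ligand of these receptors, were barely present as transcripts of the sorted cells. Ighg1, Ighg2b and Ighg3 stayed below 1 RPKM, Ighg2c reached at most 1.78, and Igkc, the kappa light chain, was listed at 0 in all 28 retinas. Ighm, the heavy chain of IgM, which these receptors do not bind, was at 32.4 to 255 RPKM in naïve (median 78.2). At 4 h it was 0 to 49.0 (median 16.6), below the naïve range in 5 of 6 retinas, and was called lower (log2 fold change -2.72, SE 0.60, adjusted p = 0.0024), at 18 h it measured 53.9, 16.1, 12.2, 3.88 and 43.6 (-2.05, adjusted p = 0.058, limma), and at 2 weeks it was 64.7 to 248. The B cell genes Cd79a, Ms4a1 and Pax5 were below 1 in every retina, and Cd79b was 20.2 to 81.3 in naïve. Of 11 immunoglobulin genes listed, 9 were in the table and 2 were tested, Ighm and Jchain. At 4 h 1 of the 2 was called lower, where 4.39% of all genes were.

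Of 41 genes listed as carrying the activating signal, 40 were tested. At 4 h, 4 were called higher and 2 lower, where 3.68% and 4.39% of all genes were, so that the lower calls were near the share of all genes. At 18 h 0 were called either way, where 2.84% of all genes were called higher and 1.85% lower. At 2 weeks 0 were called as well, where 0.00760% of all genes were called higher and 0% lower. The median log2 fold change was 0.17 at 4 h, -0.22 at 18 h and 0.11 at 2 weeks. At 4 h, Lcp2 (SLP-76, an adaptor downstream of Syk) rose by 2.46 (SE 0.58), Malt1 (a paracaspase on the path to NF-kappa B) by 2.15 (SE 0.36), Pik3r5 (a regulatory subunit of PI3-kinase gamma) by 1.89 (SE 0.42) and Fgr (a Src family kinase) by 1.85 (SE 0.46), with adjusted p between 8.9e-05 and 0.0074 by limma.

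Nfatc1, a calcium-dependent transcription factor, fell by 2.02 on the log2 scale (SE 0.40, adjusted p = 8.9e-04) and Was, which links signalling to actin, by 1.79 (SE 0.54, adjusted p = 0.033, limma) at 4 h. Between 4 h and 18 h, 5 of the 40 were called lower and 0 higher, where 2.51% and 2.92% of all genes were. These were Malt1 (-2.56), Pik3r5 (-2.36), Prkcd (-1.64), Fyn (-1.61) and Src (-1.04). From 18 h to 2 weeks 1 was called higher, Plcg1 (1.00), where 1.10% of all genes were.

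Of 13 genes listed as restraining the signal, 12 were tested. Against naïve, 4 were called lower at 4 h, where 4.39% of all genes were, and 1 at 18 h, where 1.85% were. None was called higher, where 3.68% of all genes were at 4 h and 2.84% at 18 h, so that 0 of 12 is near those shares. At 2 weeks none was called, where 0.00760% of all genes were called higher and 0% lower. The median was -0.72 at 4 h, -0.64 at 18 h and -0.02 at 2 weeks. Inpp5d, which encodes the phosphatase SHIP that the inhibitory receptor recruits, fell by 1.60 at 4 h (SE 0.44, adjusted p = 0.017). Pag1, which tethers the inhibitory kinase Csk, had log2 fold changes of -1.80 at 4 h and -1.93 at 18 h (adjusted p = 0.0011 and 0.0021), Ubash3b -1.74 and Csk itself -1.33 at 4 h (adjusted p = 0.0039 and 0.043, all by limma).

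**Figure D5:**
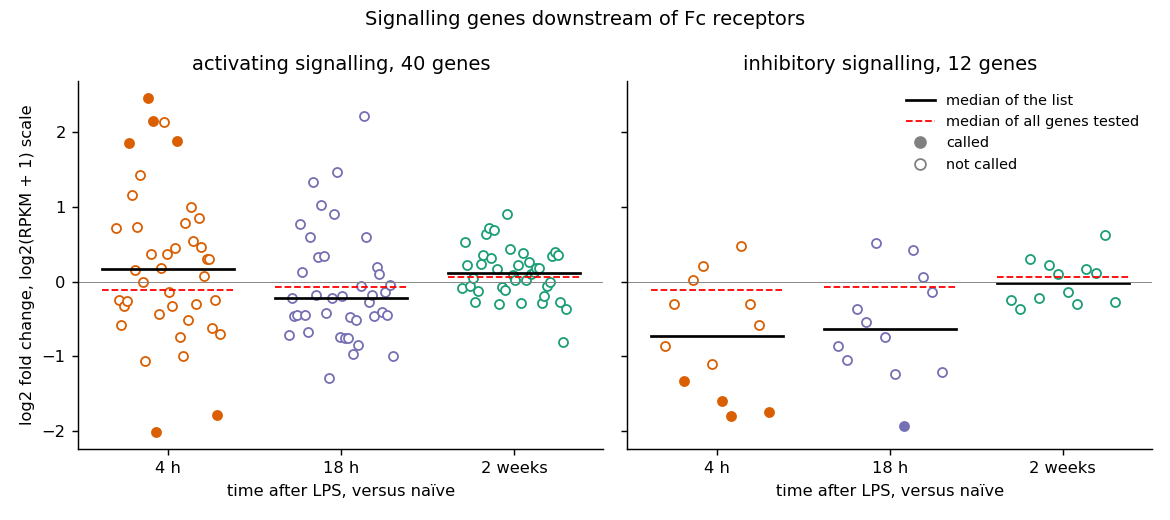
Log2 fold change against naïve, on the log2(RPKM + 1) scale, of each tested gene of the activating (40 genes) and inhibitory (12 genes) signalling lists at each time; filled points were called, the black bar is the median of the list and the dashed red line that of all genes tested. At 4 h the activating list has called genes on both sides of 0 and the inhibitory list only below 0.

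Genes whose profile over the 28 retinas was most like that of each member were found by the root mean square difference between profiles standardised to mean 0 and SD 1, which is 0 for identical profiles. Fcgr4 was nearest to Fcer1g (0.50), ahead of Gm20390 (0.50) and Ms4a4c (0.51), and Fcgr4 was the 10th nearest gene to Fcer1g. Among the genes nearest to Fcer1g itself were those of the ribosomal proteins Rps9 (0.44) and Rpl35 (0.45).

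Fcgr2b was nearest to Clec4a3 (0.34), a C-type lectin receptor gene whose mean was 88.95 RPKM in naïve and 413 at 18 h, with 38.03 at 4 h and 110.5 after 2 weeks, followed by Selenof (0.57) and Manf (0.58). Fcgr1 was nearest to P4ha1 (0.51), Ppib (0.57) and Arl6ip1 (0.59), the first of which was also lower at 4 h (13.4) than in naïve (32.8) by the mean. Fcgr3 was nearest to Stambp (0.40), Rpp25l (0.43) and Clpp (0.44), and the nearest other member was Fcgr1 at 1.19. The 28 points of each profile share their libraries, so these values describe likeness within this set alone.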

How the data were processed

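Microglia mRNA of 28 retinas was sequenced. The deposited values are RPKM: the authors trimmed the reads, aligned them to mm10 with STAR 2.5.3a and quantified Ensembl release 89 transcripts with Partek's expectation-maximisation, which can divide reads between genes and makes very low values and exact zeros estimates; the table also holds the alignments per retina. From the alignments and the longest transcript, the members rest on about 353 to 78857 reads per retina. Tables of the authors' own comparisons (p-values, ratios, F statistics) were not used.

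Groups, experiments and eyes came from the labels. Values were set to log2(RPKM + 1), which understates changes of low genes, and fitted by limma 3.58.1 (R 4.3.3) with all 28 retinas in 4 groups, empirical Bayes with a trend, and p-values adjusted by Benjamini-Hochberg over the 13164 genes that had 1 RPKM or more in 5 or more retinas. The test was checked on simulated data. Alternatives were pseudocounts of 0.1 and 10, other filters, normalisations, variance models and covariates, a replicate block, single experiments and each retina left out. Leaving out the 4 retinas with the fewest genes was chosen after seeing the data. The members and lists were chosen with earlier results of these data known. Named were the members, every gene of the lists of other Fc receptors and of FcRγ partners, up to 3 called signalling genes per direction and comparison with naïve, and the 3 nearest profiles of each member, some genes of which are not reported here; Fgr, Csk, the immunoglobulin genes, and the genes called between later times were named after their values were seen. Coordinates are those of GENCODE release M21 (GRCm38), promoters those of RefSeq, which held all 5 members. Figures were drawn with Python 3.11.15.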

Additional observations from a re-analysis of the deposited data

Results flagged for a closer look

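Changes from naïve differed between 4 h and 18 h for 4 of the 5 members, by limma's test of 18 h against 4 h already given above. By that test 2.92% of all genes were called higher and 2.51% lower. The difference on the log2 scale was 1.90 for Fcgr1, 1.72 for Fcgr2b, 2.76 for Fcgr4 and 1.49 for Fcer1g.

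Of 60 groups of values examined for a retina far from the others by Dixon's criterion, 12 had one. Chance gives about 3 for independent, normally distributed values. Untransformed RPKM of genes from the same retinas are not such values, so no excess is read from this count. Among the members, Fcgr3 in 18 h replicate 4 was low at 450.6 RPKM, against 1246 to 1438 in the other 4, in a retina with 6969 genes detected. Fcgr4 was high in naïve replicate 3 (164.7, others 36.2 to 78.4), which had 7088 genes detected, and in 2 weeks replicate 4 (128.9, others 58.2 to 84.9). Clec4e in the same 2 weeks replicate 4 was 25.3 RPKM, against at most 4.72 in the others.

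The remaining retinas that stood far from their group were all high. In naïve these were Fcgrt in replicate 1 at 63.4 RPKM, Clec4e in replicate 1 at 0.30, Clec4d in replicate 5 at 13.3, Clec4n in replicate 2 at 25.0 and Jchain in replicate 4 at 18.1. Clec4n also stood out in 4 h replicate 5 at 27.7 and in 2 weeks replicate 2 at 40.0, and Fcrlb in 18 h replicate 3 at 1.05.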

How the results depend on the processing

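Fcgr4 kept its calls at 18 h against naïve, 18 h against 4 h and 2 weeks against 18 h under every alternative run, with 2.91 to 3.57 on the log2 scale for 18 h against naïve. The call of Fcgr1 at 18 h was lost with only the groups compared fitted (1.11, adjusted p = 0.071), in experiment 1 alone (1.17), under quantile normalisation (0.81) and with equal summed RPKM (0.78), and ranged from 0.90 to 1.42 with each retina left out. Other calls lost were mostly in single experiments, where few retinas remain: in experiment 1 alone Fcgr1 (1.84), Fcgr2b (1.38) and Fcer1g (1.47) for 18 h against 4 h, Fcgr2b at 18 h against naïve (1.28) and Fcer1g for 2 weeks against 18 h (-1.58); in experiment 2 alone, whose 1 retina at 18 h is assumed to vary like the others, Fcgr2b (1.32) and Fcer1g (1.32) at 18 h against naïve, and Fcer1g for 18 h against 4 h (1.29) and 2 weeks against 18 h (-1.67). Fcgr2b at 18 h was also lost under quantile normalisation (1.00, adjusted p = 0.053). Calls gained were Fcgr1 at 4 h in experiment 2 alone (-1.06) and with equal summed RPKM (-1.07), where the median of all genes moved to -0.28; Fcgr1 for 2 weeks against 18 h with experiment as a covariate (-1.11), in experiment 2 alone (-1.49), by ANOVA on RPKM (-1.05) and without the 4 retinas with the fewest genes (-1.11), and, with each retina left out, -1.28 to -0.76, called without 18 h replicate 4; and Fcgr2b for 2 weeks against 18 h by ANOVA (-1.05). The uncalled changes of Fcgr3 turned sign: at 4 h in experiment 2 alone (-0.81, adjusted p = 0.020), under quantile normalisation (-0.18), equal summed RPKM (-0.17) and ANOVA (-0.19), and without the 4 retinas (-0.40); at 18 h with the experiment as a covariate (0.064), with the replicate block (0.46) and in experiment 1 alone (0.37); at 2 weeks in experiment 2 alone (-0.24); and for 18 h against 4 h with the covariate (0.013), in experiment 2 alone (0.35) and without the 4 retinas (0.15). With each retina left out they ran from -0.15 to 0.23, -0.31 to 0.26 and -0.27 to 0.15 for 4 h, 18 h and 18 h against 4 h. Fcer1g turned sign at 4 h under quantile normalisation (-0.23) and equal summed RPKM (-0.086), and at 2 weeks with the replicate block (0.069), in experiment 1 alone (0.23), without the 4 retinas (0.044) and with single retinas left out (-0.16 to 0.11). The sum of Fcgr2b and Fcgr3, which Fcgr3 dominates, changed by 0.10 at 18 h against naïve, 0.063 against 4 h and 0.16 from 18 h to 2 weeks. Over all genes, calls at 4 h were 1063, and 416 with a pseudocount of 10 or 459 in experiment 1 alone; at 18 h 618, and 338, 232 or, in experiment 2 alone, 165; for 18 h against 4 h 714, and 458, 202 or, without the 4 retinas, 1241; for 2 weeks against 18 h 349, and 76 or 177 in the single experiments and 532 without the 4 retinas; and for 2 weeks against naïve 1, and 0 by ANOVA. With each retina left out these counts were 407 to 729 at 18 h (lowest without 18 h replicates 1 or 2), 473 to 835 for 18 h against 4 h (lowest without 4 h replicate 1) and 205 to 445 for 2 weeks against 18 h (lowest without 18 h replicates 2 or 3). Whether replicate numbers pair the retinas could not be told. Over 34 pairs of the same number in different groups the mean correlation of deviations was 0.048, and 15 were over 0.1. Over 253 pairs of different numbers it was 0.0102, and 93 were over 0.1. Pairs of left and right eyes within a group were not examined. With the replicate block, 598 genes were called at 18 h and 1076 at 4 h, and it changed no call of a member. The causes of these moves were not tested. RPKM holds no counts, so no counting interval is given.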
